A study of Homo sapiens with 32 samples.

Results

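Long middle exons, internal exons of 500 nt or more with a spliced neighbour on either side, were examined for crosslinks of Alyref, Chtop and Nxf1, which act in mRNA export. Members were taken from the canonical transcript of each protein-coding gene on GRCh37, and the genes SRRM2, SON, AHNAK, MKI67, BRCA2, KMT2D, BOD1L1 and PRRC2C were left out. This gave 3579 members in 2926 genes, of 166423 middle exons and 205364 exons in all. The method was iCLIP, in which UV light joins protein to RNA in living cells, the protein is immunoprecipitated, and reverse transcription stops at the crosslinked base. Each counted event, a tag, stands for 1 deduplicated cDNA at 1 base.

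The 12 libraries came from FlipIn HEK293T cells, an established human embryonic kidney line that holds a recombination site for a single transgene. The growth notes name the same cells FlpIn-293. There were 3 libraries each from lines expressing Alyref-FLAG, Chtop-FLAG, Nxf1-FLAG or the empty FLAG construct (Control), and all were precipitated with the same anti-FLAG antibody. Expression was induced over 48 h with tetracycline, at 10 ng/mL in the Alyref and Chtop lines and 5 ng/mL in the Nxf1 line, while the labels name no dose for Control. The tagged proteins were therefore transgene products made beside the endogenous ones, in 1 stable line per factor, and nothing in the labels says that the 3 libraries of a group came from separate cultures. The p-values below measure the spread between these libraries, which may be technical.

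Alyref and Chtop are subunits or partners of TREX, the complex that couples transcription, splicing and 3′ end formation to nuclear export, and Nxf1 is the receptor that takes the mRNA through the nuclear pore. Splicing leaves an exon junction complex just upstream of each exon-exon junction, and Alyref is known to bind components of that complex and of the cap-binding complex. Chtop binds RNA through arginine-rich stretches. Most human internal exons are short, so that nearly every base lies close to a junction, whereas the inside of a long exon is far from any. The question asked here was where, in such exons, each factor was crosslinked.

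Alyref replicates 1 to 3 totalled 81307, 631704 and 603291 tags and the Chtop replicates 47052, 538844 and 429573. The Nxf1 replicates totalled 8134, 119191 and 179346 and those of Control 7017, 46628 and 36978. Of these, 1584, 13792 and 10933 Alyref tags, 1450, 27497 and 23704 Chtop tags, 336, 1770 and 1337 Nxf1 tags and 117, 315 and 177 Control tags lay in members. Replicate 1 was thus shallow in every group, and Nxf1 1 stood apart from the other Nxf1 libraries in several measures. Among genes chosen to check the line, VIM had 174 tags, PAX2 16 and KRT18 16, but NEFM had 0, and of the genes expected near 0, HBB had 12, ALB 1, PTPRC 1, CD3E 0 and INS 0. A higher RNA level and tighter binding cannot be told apart for a single exon, so that most comparisons below are made within a library or within a transcript.

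The members had a median length of 805 nt, with a range from 500 nt to the 21693 nt of exon 3 of MUC16. By class, 2328 were of 500 to under 1000 nt, 878 of 1000 to under 2000 nt and 373 of 2000 nt or more. They were mainly coding: 2486 lay wholly within coding sequence, 880 held the start codon and 142 the stop codon. The second exon of the transcript accounted for 1000 members and the penultimate one for 414 more. Another annotated transcript of the gene split 232 members by an intron and skipped 672, and 222 overlapped an exon of another gene on the same strand. Of the wholly coding members, 40.6% had a length divisible by 3, beside 39.7% of wholly coding middle exons of 100 to under 500 nt. Alyref tags were present in 2420 members, Chtop tags in 2553, Nxf1 tags in 1357 and Control tags in 429, and 873 members had none in any library, where a count of 0 in 1 library allows up to 3 tags, that is 4.75 CPM (counts scaled to the total tags of the library) in the deepest library and 427.5 CPM in the shallowest.

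To show the bases concerned, the last 100 nt of the long exons of ZNF711, a zinc finger protein that binds DNA, and SUGP2, an SR-related protein with a G-patch domain, are printed 5′ to 3′. Capitals mark the 52 bases from 75 to 24 nt before the exon's 3′ end, which served as the junction window. These are the strands of the mRNA, at chrX:84510708-84510807 (plus strand) and chr19:19135428-19135527 (minus strand) of GRCh37, and all of both is coding.
ZNF711: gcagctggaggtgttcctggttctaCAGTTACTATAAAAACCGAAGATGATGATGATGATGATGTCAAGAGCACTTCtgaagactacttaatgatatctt
SUGP2: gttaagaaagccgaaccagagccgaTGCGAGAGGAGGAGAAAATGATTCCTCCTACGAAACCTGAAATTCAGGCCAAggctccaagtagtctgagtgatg

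In ZNF711 the window held 51 Alyref and 36 Chtop tags over the 3 libraries of each factor, beside 197 and 328 tags in the interior of the exon, more than 100 nt from both ends. In SUGP2 it held 8 Alyref and 5 Chtop tags, beside 129 and 332 in the interior. These exons were shown because they had window tags of both factors. Among the other most tagged members, BRD2 had 8 and 10 and NUFIP2 4 and 9 Alyref and Chtop tags in the window. MUC16 had 0 and 0, SPEN 0 and 3, and ALMS1 0 and 3. In these last exons, of 21693, 8176 and 6105 nt, 52 bases are a small part of the length, so the raw counts do not compare the exons.

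Members took a small part of Alyref's middle-exon tags and a large part of Chtop's. They made up 16.2% of the length of all middle exons. Of the tags in middle exons, members held 8.90%, 8.52% and 8.74% in the Alyref libraries and 20.3%, 24.2% and 25.3% in the Chtop libraries. In Nxf1 the shares were 22.5%, 12.3% and 12.5%, and in Control 9.29%, 10.9% and 16.8%. The Alyref and Chtop libraries did not overlap, and every Alyref value was below the share of the length while every Chtop value was above it. Nxf1 1, with 8134 tags in all, lay among the Chtop libraries and the other Nxf1 libraries lay between Alyref and Chtop. The 3 Control shares rest on 117 to 315 tags in members.

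Density varied with length among the shorter middle exons too. Relative to the mean density over all middle exons, Alyref density was 1.38 to 1.39 in exons under 100 nt, 0.68 to 0.72 at 250 to under 500 nt and 0.42 in each of the 3 libraries at 2000 nt or more. Chtop ran the other way, with 0.65 to 0.84 under 100 nt, 1.24 to 1.51 at 500 to under 1000 nt and 1.40 to 1.87 at 1000 to under 2000 nt, and then 1.13 to 1.37 at 2000 nt or more. Nxf1 2 and Nxf1 3 had 1.08 and 1.11 under 100 nt and 0.63 and 0.71 at 2000 nt or more. At the 500-nt limit that defines the members, the 211 exons of 480 to under 500 nt had 5.47 and 4.34 CPM per kb in Alyref 2 and 3 and 9.29 and 9.81 in Chtop 2 and 3, and the 173 members of 500 to under 520 nt had 7.31 and 6.11 in Alyref and 11.2 and 13.7 in Chtop. The plot of density by length shows these values for each library.

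**Figure D1:**
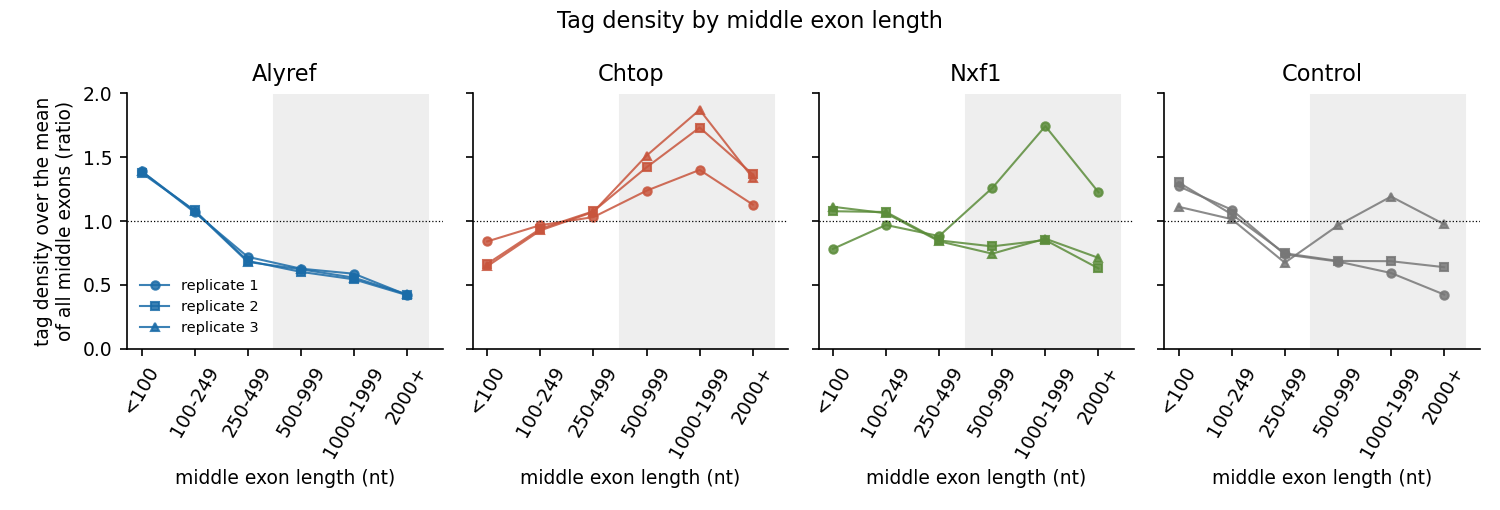
Tag density in middle exons of 6 length classes (x axis, nt) divided by the density over all middle exons (y axis, ratio), 1 line per library and 1 panel per group, with the members' classes shaded. Alyref lines descend from 1.38 or more to 0.42, Chtop lines lie above 1 in the shaded classes, and Control and Nxf1 1 rest on few tags.

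Genes differ in RNA level, so members were next set against the shorter middle exons (100 to under 500 nt) of their own transcripts, in 2652 transcripts that have both. Tags and lengths were summed over these transcripts before the ratio was taken, so differences in RNA level between them were not fully removed. The log2 ratio of tag density, member over shorter exons, was -0.80, -0.91 and -0.83 in Alyref 1 to 3 (mean -0.85 ± 0.06, SD, n = 3). In the Chtop libraries it was 0.13, 0.27 and 0.39 (0.26 ± 0.13). In the Nxf1 libraries it was 0.33, -0.24 and -0.28 (-0.06 ± 0.34), and in Control -0.83, -0.55 and 0.09 (-0.43 ± 0.47). All Alyref libraries were thus below all Chtop and Nxf1 libraries, while Control overlapped both Alyref and Nxf1. Alyref was lower than the 6 libraries of the other factors by a log2 of 0.95 (two-sided exact permutation test, p = 0.0119, the smallest that 84 regroupings allow; adjusted p = 0.0893 by Benjamini-Hochberg over 15 comparisons). Chtop was higher than Alyref and Nxf1 together by 0.72 (exact permutation p = 0.0476, adjusted p = 0.102). Neither passed an adjusted threshold of 0.05, which 3 libraries against 6 can reach only if several comparisons give the smallest p. With exons weighted equally the differences were -0.62 for Alyref and 0.65 for Chtop (exact permutation p = 0.0357 and 0.0119). Without Nxf1 1 the Chtop difference was 0.88 (exact permutation p = 0.0357) and the Nxf1 difference from the other factors went from 0.23 to 0.03. On leaving out any of the other 8 libraries of the factors in turn, the Chtop difference lay between 0.63 and 0.79 and its exact permutation p between 0.0714 and 0.214, so that its unadjusted p rests on each of them.

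Against Control, 3 libraries against 3 allow no p below 0.1. Chtop gave that value with a difference of 0.69 and no overlap between the groups (exact permutation test), and Alyref differed from Control by -0.42 (exact permutation p = 0.2). With exons weighted equally the Alyref difference from Control was -0.13 (exact permutation p = 0.8). The Control ratios rest on 112, 291 and 171 tags in members, so that background in these exons is known only roughly.

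The gap between members and shorter exons in Alyref was wider in the longer classes. Alyref's mean log2 ratio was -0.61 ± 0.08 for members of 500 to under 1000 nt, -0.87 ± 0.08 for 1000 to under 2000 nt and -1.08 ± 0.07 for 2000 nt or more (SD, n = 3). Chtop stayed on the other side of 0 in each class, with 0.22 ± 0.14, 0.29 ± 0.18 and 0.16 ± 0.12. The Nxf1 means of -0.03 ± 0.26, 0.06 ± 0.42 and -0.13 ± 0.43 lay between and had a spread larger than their distance from 0. So did the Control means of -0.27 ± 0.38, -0.51 ± 0.53 and -0.46 ± 0.75. The classes rest on different transcripts (1849, 758 and 325), summed as above, so they differ in more than exon length. These class values are descriptions of the same libraries and were not tested.

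**Figure D2:**
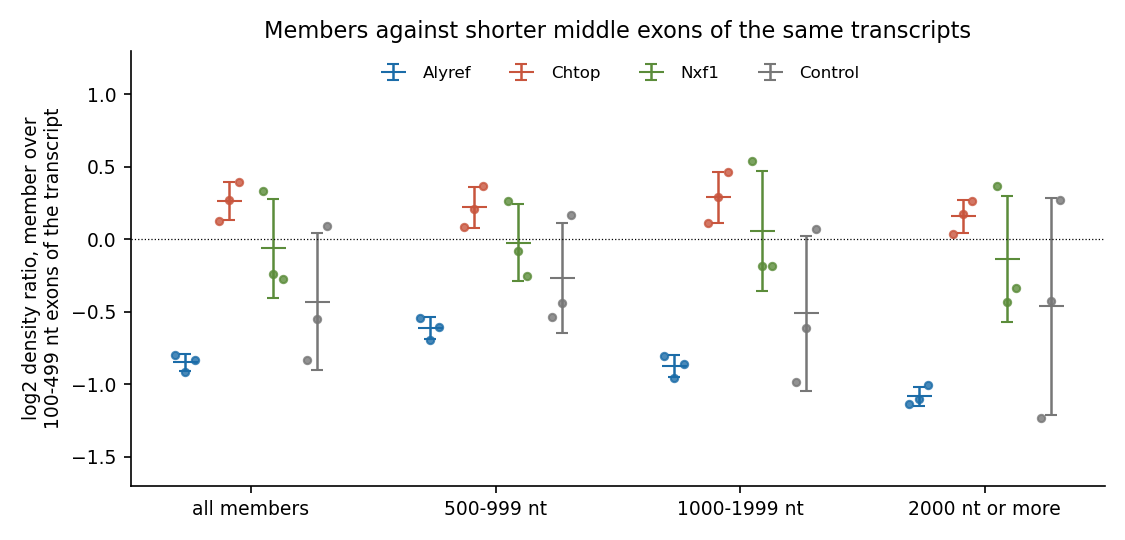
Log2 ratio of tag density in members to that in middle exons of 100 to under 500 nt of the same transcripts (y axis), for all members and by length class (x axis), where points are libraries and bars the mean ± SD (n = 3). Alyref points fall from about -0.61 to -1.08 across the classes, and Chtop means lie above 0 in each.

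The group means also varied with the place of the exon in its transcript, in Nxf1 and Control as in Alyref and Chtop. In second exons the mean was -0.38 ± 0.04 for Alyref and 0.77 ± 0.35 for Chtop, and in penultimate exons -1.49 ± 0.12 and -0.10 ± 0.14 (SD, n = 3). Nxf1 had 0.22 ± 0.45 in second and -0.37 ± 0.32 in penultimate exons. Control, at few tags, had -0.003 ± 0.50 and -1.19 ± 1.21. Members holding the start codon gave -0.23 ± 0.05 for Alyref and 0.98 ± 0.35 for Chtop, and wholly coding members -0.94 ± 0.05 and 0.15 ± 0.10. In the same order Nxf1 had 0.34 ± 0.43 and -0.14 ± 0.36, and Control -0.01 ± 0.35 and -0.55 ± 0.42. Members with the stop codon gave -0.81 ± 0.17 and 0.12 ± 0.07. In each of these classes the Alyref mean was lower than the Chtop mean. Relative to the first exons of the same transcripts, the log2 ratio of member density was -0.61 ± 0.06 in Alyref and 0.25 ± 0.06 in Chtop. Nxf1 had 0.005 ± 0.44, and Control, with -0.60 ± 0.25, was about as low as Alyref. Relative to middle exons under 100 nt the ratio was -1.25 ± 0.02 in Alyref, 0.65 ± 0.33 in Chtop, 0.02 ± 0.54 in Nxf1 and -0.53 ± 0.67 in Control. Against last exons the means of Alyref and Chtop were 0.49 ± 0.06 and 0.54 ± 0.10, closer to each other than their SDs. Nxf1 had 0.20 ± 0.31 and Control 0.16 ± 0.14. The differences in these 3 comparisons were not tested.

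Most single exons had this direction in the deeper libraries. In 1243 members the other middle exons of the transcript had at least 10 Alyref and 10 Chtop tags, a condition that does not use the member's own tags. In 1024 of them (82.4%) the member took a larger share of its transcript's middle-exon tags in Chtop than in Alyref, with libraries pooled, and in 16 the shares were equal. Replicates 2 and 3 taken alone gave 80.4% and 74.6% of the 1243, and the shallow replicate 1 gave 364 of 873, with 276 equal. The median difference was 9.65 percentage points. The same count over middle exons of 100 to under 500 nt gave 41.0% of 43471 pooled, and 36.5% and 33.7% in replicates 2 and 3, where more exons had equal shares. The share of Alyref tags was below the member's share of the length in 71.6% of these members, and the share of Chtop tags in 35.0%. Members are not replicates, and these counts are descriptions.

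The 10 members with most tags show how this looks in single transcripts. The longest, exon 3 of MUC16 (chr19:9056173-9077865, minus strand), encodes a large part of a cell-surface mucin and makes up 63.9% of the length of its transcript's middle exons. It had 8, 141 and 101 Alyref tags, 23, 432 and 259 Chtop tags, 5, 7 and 3 Nxf1 tags and 2, 1 and 1 Control tags. This was 61.9% of the transcript's middle-exon tags in Alyref and 77.2% in Chtop, pooled over libraries.

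Exon 5 of ZNF711 (chrX:84510265-84510807) is only 543 nt long, 32.9% of its middle-exon length, and was the densest of the 10 in tags per base. It had 29, 169 and 125 Alyref tags, 23, 200 and 255 Chtop tags and 9, 7 and 5 Nxf1 tags. The exon held 54.1% of Alyref's and 62.0% of Chtop's middle-exon tags in the transcript, above its share of the length in both.

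Exon 11 of SPEN (chr1:16254586-16262761, 8176 nt), which codes for most of a transcriptional repressor that binds RNA, had 16, 104 and 99 Alyref tags and 10, 187 and 201 Chtop tags. Its Nxf1 counts of 3, 31 and 18 gave the highest Nxf1 sum among the 10. It held 60.7% of Alyref's, 67.9% of Chtop's and 68.4% of Nxf1's middle-exon tags, each below its 75.8% of the length.

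Exon 8 of ALMS1 (chr2:73675090-73681194, 6105 nt), a gene for a centrosomal protein mutated in Alström syndrome, had 5, 42 and 49 Alyref tags against 10, 179 and 151 Chtop tags. Exon 3 of SEC16A (chr9:139368501-139372136, with the start codon), a scaffold of endoplasmic reticulum exit sites, had 7, 46 and 38 Alyref tags and 9, 144 and 135 Chtop tags. In SEC16A the exon, 50.5% of the middle-exon length, held 48.2% of Alyref's tags and 83.5% of Chtop's. This was the widest gap between the factors among the 10.

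Exon 4 of URB2 (chr1:229770664-229773994), which acts in ribosome biogenesis, had 7, 50 and 29 Alyref tags and 6, 133 and 136 Chtop tags, that is 72.3% and 89.9% of the transcript's middle-exon tags beside 75.9% of the length. Exon 3 of SUGP2 (chr19:19135428-19137035) had 14, 85 and 52 Alyref and 9, 175 and 191 Chtop tags, or 66.5% and 73.0% beside 49.3%. Exon 2 of BRD2 (chr6:32939372-32940704), a bromodomain protein that reads acetylated histones, had 3, 74 and 49 Alyref tags and 7, 110 and 102 Chtop tags, or 34.6% and 53.7% beside 37.3%. In all 3 exons the Chtop share exceeded the Alyref share.

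The remaining 2 of the 10 leave little to compare with. Exon 2 of NUFIP2, whose product binds RNA and the fragile X protein, makes up 98.1% of the middle-exon length. The exon of ENSG00000282034 at chr16:30748370-30752028 is the only long one counted for its transcript, and it overlaps an exon of another gene, so its 386 tags cannot be assigned to 1 gene.

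**Figure D3:**
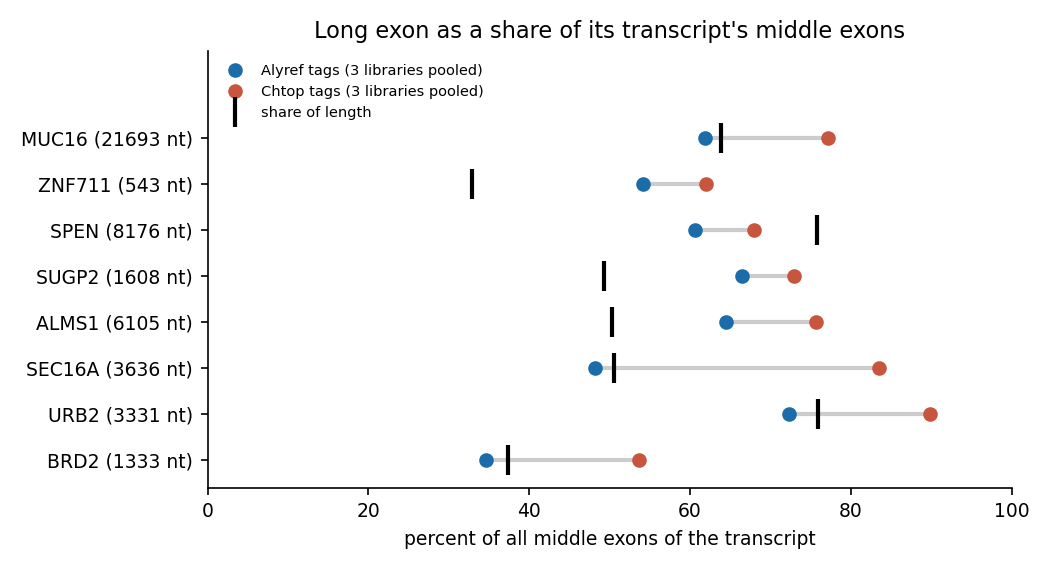
Share of the tags in all middle exons of the transcript that fell in the long exon (x axis, percent), for the members with most tags that make up less than 95% of the middle-exon length (y axis, with length). Blue points are Alyref and red points Chtop, each pooled over 3 libraries, and black bars give the share of the length; of the points, Chtop's is the right-hand one in every row.

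Single bases carried few tags, so that the signal of a long exon was spread along it. Among the 10 members the base with most Alyref tags had between 2 and 5, and the base with most Chtop tags between 2 and 4. Windows of 41 bases around such bases in coding sequence are shown, with the crosslinked base in capitals: the ZNF711 base with most Alyref tags (chrX:84510738-84510778), which lies inside the junction window printed above, and the bases with most Chtop tags in ALMS1 (chr2:73677805-73677845) and URB2 (chr1:229772326-229772366), chosen because each had 1 tag in each of the 3 Chtop libraries.
ZNF711, Alyref: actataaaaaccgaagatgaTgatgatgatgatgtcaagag
ALMS1, Chtop: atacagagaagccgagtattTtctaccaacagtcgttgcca
URB2, Chtop: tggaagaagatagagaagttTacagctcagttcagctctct

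The ZNF711 base had 0, 2 and 3 Alyref tags and also 0, 2 and 0 Chtop tags. The ALMS1 base lay 3369 nt and the URB2 base 1648 nt from the 3′ end of its exon. All 3 were T in the genome, uracil in the RNA. Over the interiors of all members, uracil stood at the crosslinked base for 45.2%, 45.7% and 46.6% of Alyref tags, 48.9%, 49.6% and 51.6% of Chtop tags and 38.4%, 43.7% and 44.6% of Nxf1 tags, against 21.3% of the sequence. Control had 32.3%, 50.2% and 46.0%. UV crosslinking is known to favour uracil, and the Control values overlapped those of the factors.

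Within the members, the factors differed by distance to the exon ends. Density in the junction window, 75 to 24 nt before the 3′ end, was set against the interior. The log2 ratio was 0.08, 0.57 and 0.56 in Alyref 1 to 3 (0.40 ± 0.28, SD, n = 3), from 72, 867 and 685 window tags. In Chtop it was -0.58, -0.61 and -0.55 (-0.58 ± 0.03), from 44, 839 and 754 window tags. Nxf1 gave -0.42, -0.02 and 0.36 (-0.03 ± 0.39) and Control 1.26, 0.03 and 0.94 (0.74 ± 0.64), the latter from 12, 14 and 14 window tags. The 3 Chtop libraries were below all other libraries. Chtop was lower than the other factors by 0.76 (exact permutation p = 0.0238, adjusted p = 0.102) and Alyref was higher by 0.70 (exact permutation p = 0.0476, adjusted p = 0.102), so neither passed after adjustment. The unadjusted p of Alyref rose above 0.05 on leaving out Alyref 2, Alyref 3, any Chtop library, Nxf1 1 or Nxf1 2, with differences from 0.62 to 0.76. Nxf1 minus Alyref and Chtop was 0.06, and 0.26 when Nxf1 1 was left out (exact permutation p = 0.643). Control was as high in the window as Alyref, at few tags, and Alyref minus Control was -0.34 (exact permutation p = 0.5), so that a junction signal of Alyref above background was not shown in these exons.

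The first 100 nt separated Alyref more evenly. The log2 ratio of their density to the interior was 0.42, 0.38 and 0.36 in Alyref (0.38 ± 0.03), 0.05, -0.06 and -0.09 in Chtop (-0.03 ± 0.07) and 0.09, 0.06 and -0.15 in Nxf1 (0.00 ± 0.13; SD, n = 3). Control gave -0.87, 0.21 and -0.22. Over all members, the 3 Alyref libraries lay above the other 9. The difference from the other factors was 0.40 (exact permutation p = 0.0119, the smallest possible; adjusted p = 0.0893), and from Control 0.68 (exact permutation p = 0.1, the smallest possible). The interior sum is weighted toward long members, where Alyref density was lowest. By length class, from short to long, the Alyref mean was 0.20 ± 0.04, 0.28 ± 0.03 and 0.60 ± 0.25. Within classes the libraries overlapped. At 500 to under 1000 nt, Nxf1 1 (0.27), Control 2 (0.24) and Control 3 (0.24) lay above all 3 Alyref libraries. At 1000 to under 2000 nt, Nxf1 3 (0.29) lay above Alyref 1 and 3, and at 2000 nt or more Control 2, at few tags, had 1.32. With exons weighted equally the difference from the other factors was 0.26. For the junction window the Alyref class means were 0.28 ± 0.30, 0.20 ± 0.33 and 0.38 ± 0.21. The part of this weighting in the ratios was not tested.

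In steps of 25 nt, Alyref was 0.53 ± 0.09 above the interior in the first step and 0.21 ± 0.17 in the fourth, and 0.26 ± 0.04 at 226 to 250 nt. Before the 3′ end its highest step was the second, at 26 to 50 nt, with 0.59 ± 0.26, and from 76 nt on it lay between 0.01 and 0.17. Chtop lay between -0.13 and 0.21 over the first 250 nt and at -0.62 ± 0.30, -0.64 ± 0.07, -0.55 ± 0.04 and -0.50 ± 0.05 in the last 4 steps, coming back to 0.09 ± 0.16 at 201 to 225 nt. The fall of Chtop density thus reached further into the exon than the 52-base window. Cut into 10 equal parts, the exons held 9.4%, 11.5% and 11.3% of their Alyref tags and 7.2%, 7.2% and 7.0% of their Chtop tags in the last part. Reads that begin in the last bases of an exon must cross the junction to be placed, in all libraries, and the part of this in the result was not tested.

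**Figure D4:**
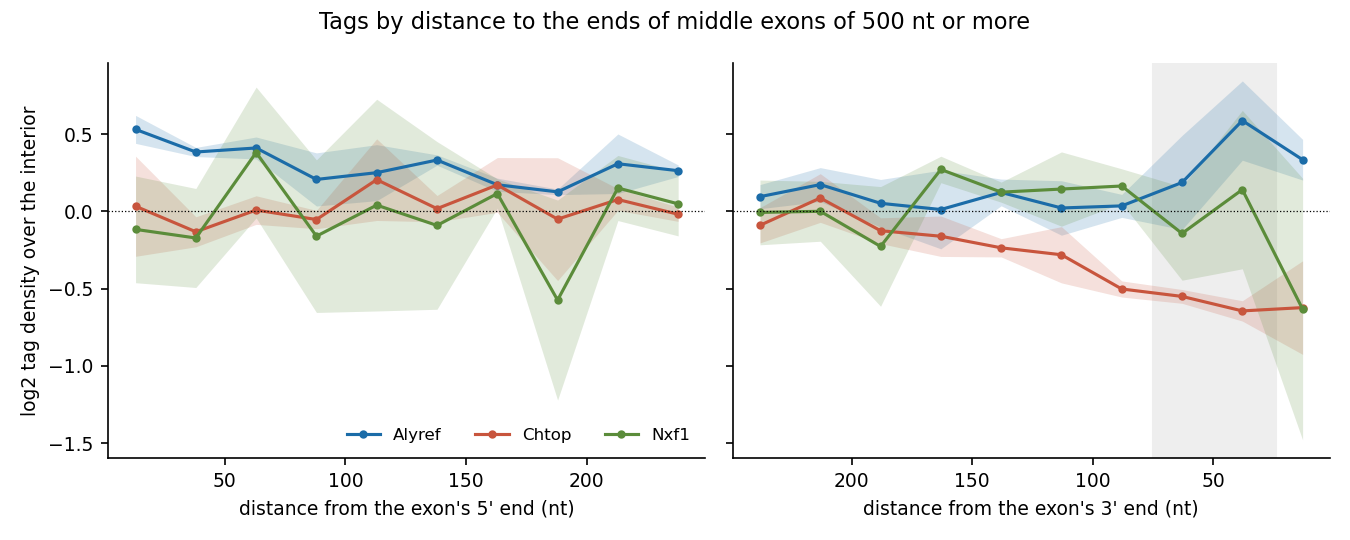
Log2 tag density over the interior (y axis) in 25-nt steps from the 5′ end (left) and the 3′ end (right) of members (x axis, nt), as group means (lines) and SD (bands, n = 3) for the factors. Alyref lies above 0 in every step over the first 250 nt, highest in the first, and peaks at 26 to 50 nt before the 3′ end with 0.59. Chtop lies near -0.6 there, and the grey band is the junction window.

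Shorter exons of 250 to under 500 nt had the same signs, so the window pattern was not particular to long ones. Their log2 ratio of window to interior was 0.07, 0.42 and 0.37 in Alyref and -0.42, -0.44 and -0.48 in Chtop. Members minus these exons gave 0.11 ± 0.09 for Alyref, -0.13 ± 0.06 for Chtop and 0.34 ± 0.29 for Nxf1 (SD, n = 3). The Chtop difference from the other factors in this measure was -0.36 (exact permutation p = 0.0357, adjusted p = 0.102) and that of Nxf1 0.35 (exact permutation p = 0.0476, adjusted p = 0.102). Nxf1 1 had 0.63 with 11 window tags in members and 13 in the shorter exons, and without it the Nxf1 difference was 0.20. The interiors compared are unlike, since those of the shorter exons lie nearer the 3′ end. In members, Chtop was still at -0.28 ± 0.18 at 101 to 125 nt and -0.12 ± 0.08 at 176 to 200 nt before that end. The part of this in the differences was not tested.

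Introns beside the members held far fewer tags of the factors. The log2 ratio of density in the 100 intronic nt on either side to that in the outermost 100 exonic nt was -2.56, -2.81 and -2.65 in Alyref and -2.74, -3.21 and -3.03 in Chtop. Nxf1 gave -3.88, -1.55 and -1.20, where Nxf1 1 had 3 intronic tags, and Control -0.87, 0.18 and -1.48. Alyref and Chtop libraries were below every Control library (exact permutation p = 0.1 for each, the smallest possible), and Nxf1 3 lay above Control 3, so that Nxf1 and Control overlapped. Nxf1 minus Alyref and Chtop was 0.62 (exact permutation p = 0.298), and when Nxf1 1 was left out it was 1.46 (exact permutation p = 0.0357).

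Sequence content differed little between members and other middle exons. GC content was 52.4% in members and 51.4% in middle exons of 100 to under 500 nt, and within members it was 54.4% at 500 to under 1000 nt and 49.4% at 2000 nt or more. The letters GGACT, a core form of the m6A consensus searched on the transcript strand only, occurred 1.12 times per kb in members and 1.08 times per kb in the exons of 100 to under 500 nt. In members it occurred 1.13 times per kb in the first 100 nt, 1.11 in the interior and 1.13 in the last 100 nt. Tag density within 25 nt of GGACT in the interior, over the rest of the interior, had a log2 ratio of 0.02 ± 0.03 in Alyref, 0.09 ± 0.11 in Chtop and -0.16 ± 0.36 in Nxf1 (SD, n = 3). In none of the 3 factors did this ratio lie further from 0 than its SD. In Control it did, with 0.16 ± 0.09, from only 6, 17 and 8 tags near GGACT.

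Single exons were tested across all exons of canonical transcripts with edgeR's quasi-likelihood test. The low-count filter left 244 exons, 21 of them members, so this comparison covers few of the members. The filter works on CPM in single libraries, not on total tags, and a few tags give a high CPM in a shallow library. Exon 16 of PRRC2A passed with 146 tags over all libraries, while exon 27 of KMT2A, with 320, did not. An exon may pass through the group where it is high, which favours a call in that direction. No direction is therefore drawn from the calls of single members given here and below. In Alyref against Chtop, 2 members were called at an adjusted p under 0.05 (edgeR, Benjamini-Hochberg), both lower in Alyref, beside 13.1% of the exons tested. ALMS1 had a log2 fold change of -0.89 (SE 0.27, adjusted p = 0.00907) and KANSL1, a subunit of a histone acetyltransferase complex, -0.91 (SE 0.30, adjusted p = 0.0233). KANSL1 exon 2 (chr17:44248221-44249598) had 1, 38 and 27 Alyref tags and 6, 113 and 114 Chtop tags. Mean CPM was 299 in Chtop and 69.7 in Alyref for ALMS1, and 201 and 39.1 for KANSL1. Both may have passed the filter through the Chtop libraries. Without Alyref 2, without Chtop 2 or with DESeq2, 0 members were called, beside 6.97%, 6.97% and 5.33% of the exons tested.

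In Alyref against Nxf1, 3 members were called, all higher in Alyref, beside 22.5% of the exons tested. They were SUGP2 (1.69, SE 0.55), MUC16 (1.38, SE 0.46) and ZNF711 (1.36, SE 0.41). These calls fell to 0 without Alyref 2, Nxf1 2 or Nxf1 3, and with DESeq2, beside 12.7%, 5.33%, 5.33% and 19.3% of the exons tested. In Chtop against Nxf1, 7 members were called beside 49.6% of the exons. MUC16 (2.04, SE 0.44), SUGP2 (2.02, SE 0.52), ALMS1 (1.69, SE 0.51), SEC16A (1.66, SE 0.53) and ZNF711 (1.02, SE 0.42) were higher in Chtop. PRRC2A, a proline-rich coiled-coil protein, was lower in Chtop (-1.75, SE 0.66), as was an exon of ENSG00000266086 (-1.90, SE 0.56) that overlaps another gene's exon. PRRC2A exon 16 had 2, 36 and 25 Chtop tags and 4, 3 and 11 Nxf1 tags. With library totals its log2 fold change was -0.12, and with no filter the values turned to 0.32 for PRRC2A and 0.22 for ENSG00000266086, neither of them called. The mean CPM of PRRC2A was 55.8 ± 12.3 in Chtop and 193 ± 260 in Nxf1 (SD, n = 3). That of ENSG00000266086 was 64.5 ± 2.1 in Chtop and 138 ± 115 in Nxf1. Both exons may have passed the filter through the shallow Nxf1 libraries, where they were high. The members higher in Chtop may likewise have passed through the Chtop libraries, so no direction is drawn from calls of either sign. Without Nxf1 2 or without Nxf1 3, 3 members were called, beside 23.36% and 22.95% of the exons tested. In these 3 comparisons the members' share of calls was lower than that of all exons tested.

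Against Control, MUC16 was called in Chtop (2.10, SE 0.71, edgeR adjusted p = 0.0417), beside 9.43% of the exons tested. This call was lost on leaving out any Chtop or Control library (edgeR adjusted p from 0.0518 to 0.172), with the replicate block, with each crosslinked base counted once and with DESeq2. No member was called in Alyref, where 0.820% of the exons were, or in Nxf1, where 1.64% were. At an unadjusted p under 0.05 edgeR gave 1 member for Alyref and 0 for Nxf1. DESeq2 called 0 members in both, beside 0.820% and 0.410% of the exons. With 7017 to 46628 tags per library, Control limits these comparisons.

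Scaling decided how many exons were called. Under the TMM scaling the median log2 fold change of all 244 exons in Alyref against Chtop was -0.09, and with library totals in its place it was -1.30. After the filter was seen to leave few exons, exons with at least 30 tags over the 12 libraries were fitted as well, 7473 in all and 837 of them members. With TMM, 18 members were called in Alyref against Chtop, 1 higher and 17 lower in Alyref, beside 6.37% of all exons, 398 higher and 78 lower. With library totals, 498 members were called, all lower in Alyref, beside 39.6% of all exons, 136 higher and 2827 lower. Relative to the median of all exons, the members' median was -0.41 against -0.01 with TMM and -1.40 against -1.02 with library totals. The members with 30 tags or more were chosen by a total to which Chtop contributed most, so these counts are descriptions.

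Gene groups were formed from lists of symbols chosen with earlier results of these data known. Each group's members were pooled and compared with the shorter middle exons of the same transcripts, and no list was tested. Over all members the log2 ratio was -0.85 in Alyref and 0.26 in Chtop, and in each of the 6 groups the 3 Alyref libraries lay below the 3 Chtop libraries. The counts of calls given for each group are of Alyref against Chtop among exons with at least 30 tags. They stand beside 2.15% of all 837 such members and 6.37% of all exons with TMM, and 59.5% and 39.6% with library totals.

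Chromatin regulators, which modify, read or remodel nucleosomes, had 122 members in 73 of 94 listed genes, all 122 with tags and 6871 in sum. Their ratio was -0.72 ± 0.03 in Alyref, 0.43 ± 0.29 in Chtop, -0.02 ± 0.41 in Nxf1 and -0.12 ± 0.63 in Control (SD, n = 3). TASOR2 exon 16, from a paralogue of a silencing-complex subunit, had 4, 61 and 34 Alyref and 8, 118 and 94 Chtop tags. KMT2A exon 27, from a histone H3 lysine 4 methyltransferase, had 10, 51 and 36 Alyref and 3, 143 and 63 Chtop tags. ASH1L exon 3, from a histone H3 lysine 36 methyltransferase, had 2, 51 and 29 against 6, 117 and 100. In library 1 of KMT2A the order was the opposite of libraries 2 and 3. Of the members of this group, 0 of 68 were called with TMM and 40 of 68, all lower in Alyref, with library totals.

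Transcription factors, most with zinc fingers, had 90 members in 65 of 91 listed genes and 5120 tags. The ratio was -0.64 ± 0.39 in Alyref, 0.43 ± 0.15 in Chtop and -0.19 ± 0.67 in Nxf1. In Control it was -0.62 ± 0.42, about as low as in Alyref. The group's junction window ratio was 1.40 ± 0.30 in Alyref and -0.15 ± 0.36 in Chtop, and Control, at few tags, had 1.43 ± 1.3, as high as Alyref. The group includes the ZNF711 exon with its 51 Alyref window tags. ZNF518A exon 6 had 8, 35 and 24 Alyref and 4, 87 and 87 Chtop tags, and RAI1 exon 3, from a regulator mutated in Smith-Magenis syndrome, had 7, 31 and 25 against 4, 94 and 80. In this group 2 of 43 members were called with TMM and 30 of 43 with library totals, all lower in Alyref.

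RNA processing and nuclear pore genes had 53 members in 39 of 80 listed genes and 3643 tags, with ratios of -0.83 ± 0.08 in Alyref and 0.36 ± 0.10 in Chtop. Those of Nxf1 and Control were 0.29 ± 1.04 and -0.44 ± 0.43. PPRC1 exon 5, from a coactivator of mitochondrial biogenesis, had 0, 57 and 33 Alyref and 2, 124 and 83 Chtop tags. PRRC2B exon 16 had 3, 48 and 32 against 6, 88 and 68, and held 19.3% of the transcript's middle-exon tags in Alyref and 43.6% in Chtop, beside 31.5% of the length. SRCAP exon 25, from a chromatin-remodelling ATPase, had 5, 50 and 44 against 7, 88 and 46, and overlaps an exon of another gene. By these roles PPRC1 and SRCAP are not RNA processing factors in the first place, although the list holds them. With TMM 0 of 37 members were called, and with library totals 21 of 37, all lower in Alyref.

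Mitosis and centrosome genes had 58 members in 38 of 59 listed genes and 3378 tags, with ratios of -0.81 ± 0.14 in Alyref and 0.37 ± 0.17 in Chtop. Those of Nxf1 and Control were 0.04 ± 0.73 and 0.59 ± 1.60. Beside ALMS1, ASPM exon 18, from a spindle-pole protein that sets brain size, had 5, 32 and 33 Alyref and 2, 90 and 63 Chtop tags, and CEP295 exon 15, from a centriole assembly protein, had 1, 28 and 22 against 4, 80 and 57. The CEP295 exon held 40.5% of Alyref's and 75% of Chtop's middle-exon tags, beside 45.0% of the length. Of 34 members with at least 30 tags, 1 was called with TMM and 22 with library totals, all lower in Alyref.

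Genome maintenance genes had 43 members in 32 of 53 listed genes and 2326 tags, with ratios of -1.03 ± 0.19 in Alyref and 0.20 ± 0.03 in Chtop. Those of Nxf1 and Control were -0.15 ± 0.33 and -0.30 ± 0.36. REV3L exon 13, from the catalytic subunit of DNA polymerase zeta, had 4, 25 and 28 Alyref and 2, 58 and 48 Chtop tags. ATAD5 exon 2, from the unloader of the PCNA clamp, had 3, 26 and 12 against 3, 54 and 58, and TICRR exon 20, from a replication initiation factor, 1, 24 and 18 against 4, 60 and 42. In ATAD5 the exon held 24.8% of Alyref's and 47.1% of Chtop's middle-exon tags, beside 35.3% of the length. With TMM 1 of 28 members was called and with library totals 15 of 28, all lower in Alyref.

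Cytoskeleton and adhesion genes had the lowest ratios of the 6 groups in both factors, with 69 members in 45 of 60 listed genes, 54 of them with tags, and 1689 tags in all. The ratio was -1.60 ± 0.14 in Alyref and -0.76 ± 0.05 in Chtop, so that here long exons had less Chtop per base than the shorter exons of their transcripts too. Nxf1 had -0.55 ± 0.78 and Control -0.66 ± 0.37, so that a negative ratio in this group was not particular to Alyref and Chtop. MAP1B exon 5, from a microtubule-binding protein of neurons, had 0, 31 and 13 Alyref and 3, 43 and 29 Chtop tags. It also had 1, 6 and 13 Nxf1 tags. EPPK1 exon 2, from epiplakin, a large repeat protein that binds keratin, had 3, 41 and 33 against 2, 75 and 58, and as it is built of repeats its tags depend on the filter on uniquely mapped reads. AKAP13 exon 7, from an anchoring protein of protein kinase A, had 2, 22 and 19 against 6, 53 and 39. With TMM 0 of 17 members were called and with library totals 12 of 17, all lower in Alyref.

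The longest members with at least 20 tags were MUC16, STARD9 (exon 23, 10227 nt), SPEN, RNF115 (exon 9, 7418 nt) and TEX15 (exon 8, 7313 nt). STARD9, a kinesin, had 6, 31 and 33 Alyref tags and 2, 106 and 75 Chtop tags, and the exon held 56.9% of Alyref's and 89.7% of Chtop's middle-exon tags, beside 73.3% of the length. RNF115, a ubiquitin ligase, had 0, 11 and 10 Alyref and 0, 11 and 7 Chtop tags. TEX15, a gene of the male germ line, had 0, 6 and 8 against 0, 8 and 9. In STARD9 the Alyref share lay below the share of the length and the Chtop share above it, and the last 2 exons had too few tags to place.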

How the data were processed

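The deposited values are counts: each file lists crosslinked bases of 1 library with the number of tags. Per the methods and the submitters' processing notes, the authors removed phiX reads with Bowtie 1.1.2, handled molecular barcodes with UMI-tools 0.5.3, trimmed with Reaper, aligned with STAR 2.4.2a to hg19 with annotated junctions, kept uniquely mapped reads, merged lanes, removed duplicates, and took the most 5′ deletion or the base before the read as the crosslink. Unused columns of per-sample values numbered 0, and pooled files were not used.

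Exons came from GENCODE 44 on GRCh37 coordinates, which match the files. Exons with the same ends in more than 1 gene were counted once. The members, gene lists and tests were chosen with earlier results of these data known. Tags were counted on the strand of the exon. Densities were tags per nt summed over members, with 0.5 tags added, compared as log2 ratios per library. Measures were compared by two-sided exact permutation tests over libraries (84 regroupings for 3 against 6, 20 for 3 against 3), adjusted over 15 comparisons in each family. Single exons were tested with edgeR 4.0.16 (quasi-likelihood, TMM, filterByExpr, all 12 libraries, adjusted p under 0.05) in R 4.3.3, after a check on simulated data, with DESeq2 1.42.0 as an alternative. Named exons were the 10 members with most tags, called members, the 5 longest with at least 20 tags, and the 3 with most tags in each list. Each sequencing run held every group, and replicates 1 and 3 shared runs, as did replicates 1 and 2. Of the 18 pairs of same-numbered libraries of different groups, deviations from the group mean over 837 members correlated by -0.049 to 0.116, so the numbers were not taken as pairs. Depth was 7017 to 631704 tags per library, and counting floors cover counting error only.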

Additional observations from a re-analysis of the deposited data

How the results depend on the processing

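Alternatives were judged at an unadjusted permutation p of 0.05 and, for single exons, by counts of called members. The lower within-transcript ratio of Alyref against the other factors kept its direction and stayed under that p in each of its 18 alternatives, with differences from -1.07 to -0.59, and so did its higher exon start ratio, from 0.26 to 0.45. The junction window ratio of Chtop kept its direction in its 18 alternatives.

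The added and planned subsets weakened other results. With exons weighted equally the Alyref window difference was 0.54 (p above 0.05), and the Nxf1 within-transcript difference of 0.23 became -0.0302, the Alyref differences in the ratio against 250 to under 500 nt exons became -0.0512 against the other factors and -0.0501 against Control, and the Alyref intron flank difference became 0.0841. Without the 10 members with most tags the Alyref window difference was 0.69 and the Alyref minus Control value against 250 to under 500 nt exons -0.0028. Without split or shared exons the latter was -0.14 and the Nxf1 difference in that ratio 0.34. With members of 1000 nt or more, the Chtop within-transcript difference was 0.76, the window differences 0.77 for Alyref, -0.66 for Chtop and -0.11 for Nxf1, the Chtop exon start difference -0.35 (now under 0.05), and the ratio against 250 to under 500 nt exons -0.26 for Chtop and 0.17 for Nxf1. In wholly coding members, chosen after seeing the data, these were 0.69 for Chtop within transcripts, and -0.0862 for Alyref, -0.29 for Chtop and 0.37 for Nxf1 against 250 to under 500 nt exons, with 0.11 for the Alyref intron flank. In members without a stop codon or 3′ UTR, also chosen after seeing the data, the ratio against 250 to under 500 nt exons was -0.0306 for Alyref against the other factors and -0.0718 against Control, and the Alyref intron flank 0.0781. Causes were not tested.

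With the replicate number as a block, permuting only within a number, the differences of 0.72 (Chtop within transcripts), 0.70 (Alyref window), -0.36 (Chtop against 250 to under 500 nt exons) and 0.35 (Nxf1) had p above 0.05, and the block changed no other call of these measures. Leaving out 1 library at a time, differences against the other factors ranged from 0.63 to 0.88 for Chtop within transcripts, 0.62 to 0.86 for the Alyref window, -0.89 to -0.69 for the Chtop window, -0.13 to 0.26 for the Nxf1 window, and -0.0432 to 0.12, -0.40 to -0.28 and 0.20 to 0.50 for Alyref, Chtop and Nxf1 against 250 to under 500 nt exons. For the Chtop exon start they ranged from -0.30 to -0.18 and for the Alyref intron flank from -0.32 to 0.21, for that of Nxf1 from 0.12 to 1.46. Against Control the Alyref ratio against 250 to under 500 nt exons ranged from -0.16 to 0.12 and the Chtop exon start from -0.0293 to 0.51.

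Counts of called members changed with scaling, filter, tool and single libraries. In Alyref against Chtop, 2 members became 16 with library totals (76.2% of members beside 59.8% of all exons), 0 with no filter (beside 0%), 0 with DESeq2 (beside 5.33%), and 18, 498 and 312 among exons with at least 30 tags scaled by TMM, library totals and exon tag totals (2.15%, 59.5% and 37.3% beside 6.37%, 39.6% and 25.5%). In the same order, in Chtop against Nxf1, 7 became 17 (81.0% beside 64.8%), 0 with no filter (beside 0.000855%), and 55, 487 and 45 (6.57%, 58.2% and 5.38% beside 6.40%, 39.1% and 7.27%). In Chtop against Control, 1 became 17 (81.0% beside 60.2%), 20 with no filter (0.739% beside 0.146%), 0 with the replicate block (beside 2.87%), 0 with each base counted once (beside 3.28%), 0 with DESeq2 (beside 6.15%), and 57, 37 and 0 (6.81%, 4.42% and 0% beside 5.78%, 3.89% and 0.120%). In Alyref against Nxf1, 3 became 0 with library totals, no filter, each base counted once or DESeq2 (beside 5.33%, 0%, 23.4% and 19.3%), and 0 and 6 among exons with at least 30 tags scaled by library and exon totals (0% and 0.717% beside 0.254% and 4.10%). In Alyref against Control, 0 became 5 with at least 30 tags and TMM (0.597% beside 1.08%). Leaving out 1 library gave 0 to 2, 3 to 8, 0 to 0 and 0 to 4 members in the first 4 of these comparisons. The share of all exons called was then 4.92% to 14.75%, 22.95% to 50.41%, 0.410% to 1.64% and 5.33% to 31.15%. With no filter the log2 fold changes of ENSG00000266086 and PRRC2A in Chtop against Nxf1 turned to 0.22 and 0.32. Control and Nxf1 depth limits every comparison that uses them.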
